A study of Mus musculus with 9 samples.

Results

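The prefrontal cortex of Shank3 mutant mice given UNC0642 was compared with that of wild-type mice given saline, across all 14444 genes of the deposited matrix. The members are the 6 libraries of these groups, 3 in each, of 9 in the series, chosen by the names of their columns. The labels give the mutant genotype as SHANK3, without an allele, strain or sex. The mutants received 3 daily intraperitoneal doses of UNC0642, 1 mg per kg each, and all mice were 5 to 8 postnatal weeks old. The other 3 libraries are Shank3 mutants given saline. The groups compared differ in genotype and in treatment, so effects of the mutation and of the compound cannot be told apart in this contrast. The labels do not state if a library stands for its own animal, and the p-values below rest on library-to-library spread, part of which may be technical.

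SHANK3 is a scaffold of the excitatory postsynaptic density that links glutamate receptors, through partners such as SAPAP and Homer proteins, to the actin cytoskeleton. EHMT1 and EHMT2 form a methyltransferase complex that adds a first and a second methyl group to lysine 9 of histone H3 (H3K9), marks associated with silenced genes. UNC0642 is a small-molecule inhibitor of the catalytic activity of both enzymes.

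Each value is a normalised signal per gene that the authors call CPM, built from whole reads that could be solved for (12035098 to 16165483 in the 6 libraries). The authors had levelled these values: UNC0642 replicates 2 and 3 lie in the same levelled set as wild type, so their distance from wild type is as measured, whereas replicate 1 lies in the other set and was moved gene by gene. Results are therefore given for all 3 treated libraries, for replicates 2 and 3, and with the levelling undone, where replicate 1 takes the value that its reads give on the wild-type scale. A division between libraries bears on every result too. With the levelling undone, the first principal component (51.7% of the variance) placed UNC0642 replicate 3 at -23.5, among the wild-type libraries (-36.7 to -19.7), and UNC0642 replicates 1 and 2 at 24.6 and 19.4, on the side of the saline mutants (17 to 23.7). Replicate 3 is thus the treated library that shares both the levelled set and the side of this division with wild type, and its values are given separately. Markers of the tissue were present: Slc17a7, the vesicular glutamate transporter of cortical excitatory neurons, had 17325 to 29641 reads in the 6 libraries and the cortical transcription factor Tbr1 had 1451 to 2200.0, whereas Drd2, a dopamine receptor abundant in striatum, had 6 to 24.0.

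Shank3 and the genes of both enzymes that UNC0642 inhibits did not pass the test. Shank3 read 308, 315 and 355 in the 3 wild-type libraries and 288, 303 and 323 in UNC0642 replicates 1, 2 and 3. The ranges overlapped, and the log2 difference was -0.10 (SE 0.08, limma adjusted p = 0.71), where differences throughout are treated mutant minus wild type on the scale of log2(value + 0.5). This total is no check of the genotype unless the allele deletes counted exons, and the allele is not in the labels. Ehmt1 read 36.0, 35.9 and 36.8 in wild type and 35.2, 33.1 and 35.7 under UNC0642, a difference of -0.06 (SE 0.09, limma adjusted p = 0.83), with every treated library just under every wild-type library. Ehmt2 read 242, 208 and 235 against 218, 231 and 236, with overlapping ranges and a difference of 0.00 (SE 0.08, limma adjusted p = 1).

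Across all genes, limma called 0 of 14444 (0%) at an adjusted p under 0.05 when all 3 treated libraries were used as deposited, with 1238 genes (8.57%) at an unadjusted p under 0.05. In UNC0642 replicates 2 and 3 it called 3 genes (0.0208%), with 1005 at an unadjusted p under 0.05: Gabra2 and Tmem181b-ps fell, and Tuba1c rose. On the recovered reads of all 3 treated libraries, limma-voom called 8 genes (0.0554%), with 2794 at an unadjusted p under 0.05. There Gabra2, Inf2, Tmem181b-ps, Serinc2, Gse1 and Cbfa2t3 fell, and Lypd1 and Gpr39 rose. As a further background, all 3 treated libraries lay above all 3 wild-type libraries, both as deposited and with the levelling undone, in 807 genes (5.59%), and below them in 799 (5.53%).

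Gabra2, the alpha2 subunit of the GABA-A receptor, was called in each of those fits except that of all 3 libraries as deposited. It read 67.8, 59.2 and 66.6 in wild type (64.6 ± 4.67, SD, n = 3) and 52.0, 30.6 and 36.8 under UNC0642 (39.8 ± 11.1, SD, n = 3), and 33.7 in replicate 1 with the levelling undone. Every treated library lay below every wild-type library, including replicate 3 on the wild-type side of the division. Gabra2 differed by -0.72 over all 3 libraries as deposited (SE 0.14, limma adjusted p = 0.58) and fell by 0.93 in replicates 2 and 3 (SE 0.13, limma adjusted p = 0.035). It fell by 0.94 on recovered reads (SE 0.09, limma-voom adjusted p = 0.0022) and differed by -0.80 in replicate 3 alone, a value from 1 treated library. The saline mutants, with the levelling undone, read 32.9, 31.9 and 30.2, close to the treated libraries on that scale. Of 15 GABA-A receptor subunits 13 were measured, 8 of them had a positive difference, and outside Gabra2 they ranged from -0.11 for Gabrg1 to 0.24 for Gabra5.

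Inf2, a formin that assembles and severs actin filaments, read 131, 143 and 118 in wild type (130.3 ± 12.6, SD, n = 3) and 106, 83.4 and 76.2 under UNC0642 (88.5 ± 15.6, SD, n = 3), with replicate 1 at 74.9 once the levelling was undone. The groups did not overlap, and replicate 3 was the lowest library as deposited. The difference was -0.56 as deposited (SE 0.11, limma adjusted p = 0.58) and -0.70 in replicates 2 and 3 (SE 0.12, limma adjusted p = 0.19). Inf2 fell by 0.73 on recovered reads (SE 0.08, limma-voom adjusted p = 0.0049) and differed by -0.77 in replicate 3 alone, again from 1 treated library. The saline mutants read 72.6, 75.4 and 79.0 with the levelling undone.

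Tmem181b-ps, a pseudogene copy of the membrane protein gene Tmem181a, read 142, 166 and 189 in wild type and 118, 89.1 and 77.7 under UNC0642, with 85.9 for replicate 1 unlevelled. The groups did not overlap and replicate 3 lay lowest. It fell by 0.98 in replicates 2 and 3 (SE 0.13, limma adjusted p = 0.035) and fell by 0.96 on recovered reads (SE 0.13, limma-voom adjusted p = 0.028), against -0.81 over all 3 libraries as deposited (SE 0.15, limma adjusted p = 0.58). Reads of near-identical copies may be shared among them, so this value is uncertain. Tmem181a itself had 831, 967 and 923 reads in wild type and 393, 475 and 827 under UNC0642, lowest in replicates 1 and 2. A further copy, Tmem181c-ps, lay the other way in those 2 libraries, with 68, 104 and 118 reads in wild type and 322, 408 and 62 under UNC0642.

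Lypd1, a Ly6-family protein of the neuronal membrane, read 107, 107 and 101 in wild type and 122, 181 and 149 under UNC0642, with replicate 1 at 168 when the levelling was undone. Gpr39, a receptor activated by zinc, read 91.0, 83.6 and 83.1 against 95.9, 148 and 119, with 131 for replicate 1 unlevelled. In both genes every treated library lay above every wild-type library and replicate 1 lay nearest to wild type as deposited. Lypd1 rose by 0.66 (SE 0.09) and Gpr39 by 0.63 (SE 0.09) on recovered reads, each with a limma-voom adjusted p of 0.028. Over all 3 libraries as deposited the differences were 0.50 and 0.47 (SE 0.12 each, limma adjusted p = 0.58 each). The 2 genes overlap in the annotation, and the strand setting of the counting is not given in the sources used here, so their reads may not be separate. The saline mutants read 162 to 194 for Lypd1 and 136 to 152 for Gpr39 with the levelling undone.

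The other genes that fell on recovered reads were 2 nuclear proteins and a membrane protein. Cbfa2t3, a transcriptional corepressor, read 47.6, 46.3 and 49.2 in wild type and 42.2, 24.3 and 34.4 under UNC0642 (27.8 for replicate 1 unlevelled) and fell by 0.74 (SE 0.12, limma-voom adjusted p = 0.039). Gse1, a coiled-coil protein of histone deacetylase complexes, read 74.5, 75.3 and 79.0 against 66.2, 44.3 and 56.2 (41.0 unlevelled) and fell by 0.70 (SE 0.11, limma-voom adjusted p = 0.031). Both kept the groups apart on either scale. Serinc2, of the serine incorporator family, read 10.1, 12.5 and 9.56 against 12.9, 5.67 and 5.31, so that replicate 1 lay above wild type as deposited, but at 5.17 and below wild type with the levelling undone. It fell by 1.00 on recovered reads (SE 0.15, limma-voom adjusted p = 0.028) and differed by -0.51 as deposited (SE 0.25, limma adjusted p = 0.59), so its call rests on where replicate 1 is placed.

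Tuba1c, an alpha-tubulin, had the largest difference of the genes called in replicates 2 and 3 and was split within the treated group. It had 4, 2 and 2 reads in wild type and 19, 329 and 280 under UNC0642, deposited as 1.13, 0.749 and 0.762 against 0.874, 41.5 and 37.6. Replicate 1 lay within the wild-type range as deposited and at 3.60 with the levelling undone, while replicates 2 and 3 lay far above. Tuba1c rose by 4.87 in replicates 2 and 3 (SE 0.22, limma adjusted p = 3e-07), and over all 3 libraries it differed by 3.25 (SE 0.94, limma adjusted p = 0.58). The saline mutants were split likewise, with 47, 336 and 380 reads. Alpha-tubulin genes are close copies of each other, so the assignment of these reads is uncertain.

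**Figure D1:**
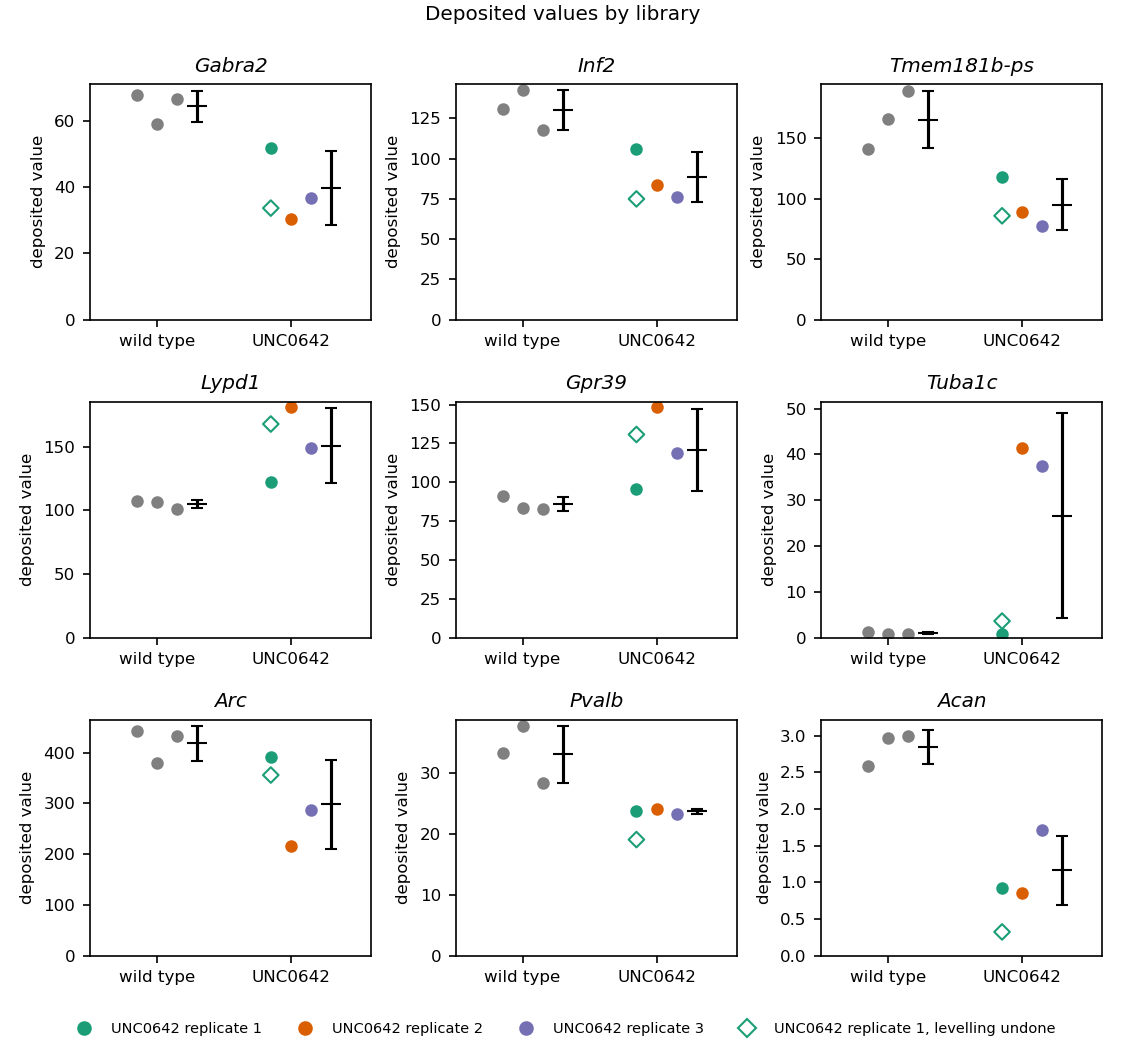
Deposited values (vertical axes, normalised signal) of 9 genes in the 3 wild-type libraries (grey) and the 3 UNC0642-treated mutant libraries (colours), with bars for mean ± SD (n = 3) and an open diamond for UNC0642 replicate 1 with the levelling undone. Gabra2, Inf2, Tmem181b-ps, Pvalb and Acan lie lower and Lypd1 and Gpr39 higher in all 3 treated libraries, whereas Tuba1c and Arc overlap between the groups as deposited.

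Replicate 3 alone has no spread of its own. When it was assumed to vary like the wild-type and saline mutant libraries, limma called 5 genes against wild type, with 504 at an unadjusted p under 0.05, which compares 1 library with wild type and not the treatment. Robo3, Gabra2 and Inf2 were on the lower side, and Tuba1c and Mgp on the higher side. Robo3, an axon guidance receptor, read 19.8, 23.1 and 26.4 in wild type and 16.7, 12.9 and 6.96 under UNC0642, with 10.5 for replicate 1 unlevelled. All treated libraries lay below wild type and replicate 3 lay lowest. Robo3 differed by -1.65 in replicate 3, by -1.23 in replicates 2 and 3 (SE 0.22, limma adjusted p = 0.22) and by -0.97 over all 3 (SE 0.24, limma adjusted p = 0.58). Mgp, a matrix protein that inhibits calcification, read 8.76, 8.28 and 9.96 against 10.7, 16.4 and 22.8, again without overlap and with replicate 3 farthest from wild type. It differed by 1.30 in replicate 3, by 1.07 in replicates 2 and 3 (SE 0.18, limma adjusted p = 0.22) and by 0.79 over all 3 (SE 0.20, limma adjusted p = 0.58). Mgp is 1 of 24 meningeal fibroblast markers, whose median difference was 0.81 in replicate 3, and their part in its difference was not tested.

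Replicates 1 and 2 stood apart from wild type in many genes in which replicate 3 did not. With the levelling undone and replicate 3 left out, limma called 2995 genes (1424 higher, 1571 lower), against 14 with all 3 libraries and 0 for replicates 1 and 2 as deposited (2020 at an unadjusted p under 0.05). Among 12381 genes with at least 50 reads in at least 3 of the 6 libraries, replicate 1 lay at least 2-fold above every wild-type library in 13 and below in 37, replicate 2 in 7 and 30, and replicate 3 in 4 and 1. Replicates 1 and 2 shared 25 of these genes, 7 higher and 18 lower, and replicate 3 shared 0 with either. The examples that follow were chosen after their values were seen.

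Mrgpra6, a receptor of the Mas-related family, had 2299, 3100 and 3895 reads in wild type and 0, 0 and 3749 in the treated libraries, where a count of 0 allows up to 3. Lrrc17, a secreted leucine-rich repeat protein, had 1546, 1960 and 1551 against 14, 10 and 2506, and Dynlt1a, a dynein light chain whose gene overlaps Tmem181a, 401, 519 and 530 against 49, 54 and 504. In all 3 genes replicate 3 read like wild type and the other 2 treated libraries were far lower. Uchl1os, an antisense transcript of Uchl1, and Cox7c, a subunit of cytochrome c oxidase, lay the other way, with 156, 163 and 168 against 671, 740 and 201 reads and 487, 522 and 496 against 1259, 1594 and 555. The saline mutants resembled replicates 1 and 2, with 0, 0 and 0 reads of Mrgpra6, 10, 7 and 13 of Lrrc17 and 623, 721 and 699 of Uchl1os. Rn45s, the ribosomal RNA precursor, moved with the division as well, at 67428, 54668 and 55759 reads in wild type and 23816, 26596 and 92581 under UNC0642, in libraries from which ribosomal RNA had been depleted. The part of genotype, treatment and library making in this division was not tested.

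The 10 genes of smallest p in each direction show what stood near the threshold over all 3 libraries without passing it (limma adjusted p = 0.58 for all 20, and no overlap between the groups in any). On the lower side, beside Gabra2, Inf2, Tmem181b-ps and Gse1, were the basement membrane collagen Col4a2 (-0.49, SE 0.10), the endothelial adhesion receptor Adgrl4 (-0.73, SE 0.16) and the VEGF receptor Flt1 (-0.61, SE 0.15). Mdga1, a neuronal surface protein, differed by -0.60 (SE 0.14) and the proteoglycan Acan by -1.04 (SE 0.25). On the higher side, beside Lypd1, were the matricellular protein Nov (0.46, SE 0.11), the synaptic organiser Cbln1 (0.63, SE 0.15), the receptor-modifying protein Ramp3 (0.66, SE 0.16) and the CRH-binding protein Crhbp (0.41, SE 0.10). Also on this side were Tmem169 (0.48), Cdk5rap3 (0.43), A730017C20Rik (0.56), A930005H10Rik (0.78) and 3010026O09Rik (0.78).

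**Figure D2:**
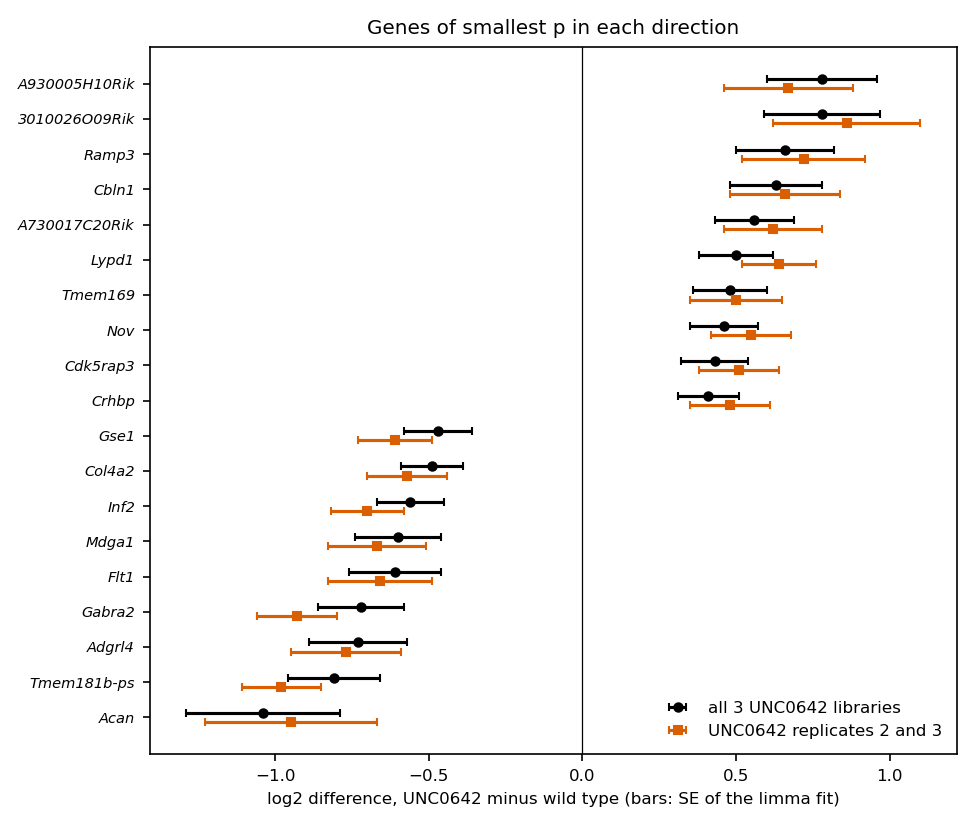
Log2 differences (horizontal axis, treated mutant minus wild type, bars for the SE of the limma fit) of the genes of smallest p in each direction that are reported here, for all 3 UNC0642 libraries and for replicates 2 and 3. Gabra2 moves from -0.72 to -0.93 and Lypd1 from 0.50 to 0.64 when replicate 1 is left out, and each gene drawn stays on its side of 0.

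Cbln1, which joins presynaptic neurexins to postsynaptic receptors, read 8.19, 9.96 and 8.87 in wild type and 13.7, 16.0 and 13.1 under UNC0642, and the saline mutants read 13.1, 17.2 and 12.4 with the levelling undone. Every treated library exceeded every wild-type library. A930005H10Rik, a noncoding transcript, read 5.85, 5.45 and 7.04 against 12.6, 8.25 and 11.9, and here the saline mutants, at 7.96, 5.90 and 6.22, lay within or near the wild-type range. Tmem169, a transmembrane protein, read 16.8, 17.2 and 14.7 against 22.4, 24.9 and 21.4, with saline mutants at 20.5, 17.5 and 19.06. In A930005H10Rik and Tmem169 the treated libraries lay above both other groups on the unlevelled scale; these genes were picked for that after their values were seen, with no test.

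Genes with the widest gap between the groups included, beside Cbln1 and Tmem169, Sema3f, Trhr and Aldh1a3 on the higher side. Sema3f, a secreted semaphorin, read 4.97, 4.84 and 5.28 in wild type and 6.83, 7.77 and 6.98 under UNC0642 (0.47, SE 0.15). Trhr, the receptor of thyrotropin-releasing hormone, read 4.64, 4.89 and 5.43 against 7.61, 8.19 and 7.03 (0.56, SE 0.17). Aldh1a3, an enzyme of retinoic acid synthesis, read 7.65, 7.61 and 5.84 against 9.76, 11.3 and 10.8 (0.57, SE 0.19). On the lower side were Hmmr, a hyaluronan receptor, at 5.45, 4.46 and 4.57 against 3.25, 2.07 and 2.93 (-0.73, SE 0.19), and Prkd2, a protein kinase D, at 4.03, 4.44 and 7.02 against 2.84, 2.66 and 3.21 (-0.70, SE 0.21). All 5 have low values, and the limma adjusted p was 0.58 for each.

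Gene lists are described below by the number of measured members with a positive difference, the number whose groups did not overlap either as deposited or with the levelling undone, and the median difference. Over all genes these were 7354 of 14444 positive (50.9%), 5.59% not overlapping higher, 5.53% not overlapping lower, and a median of 0.00. Over all 3 libraries as deposited no list had a member called by limma. Gabra2 was the 1 list member called in replicates 2 and 3 or on recovered reads.

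**Figure D3:**
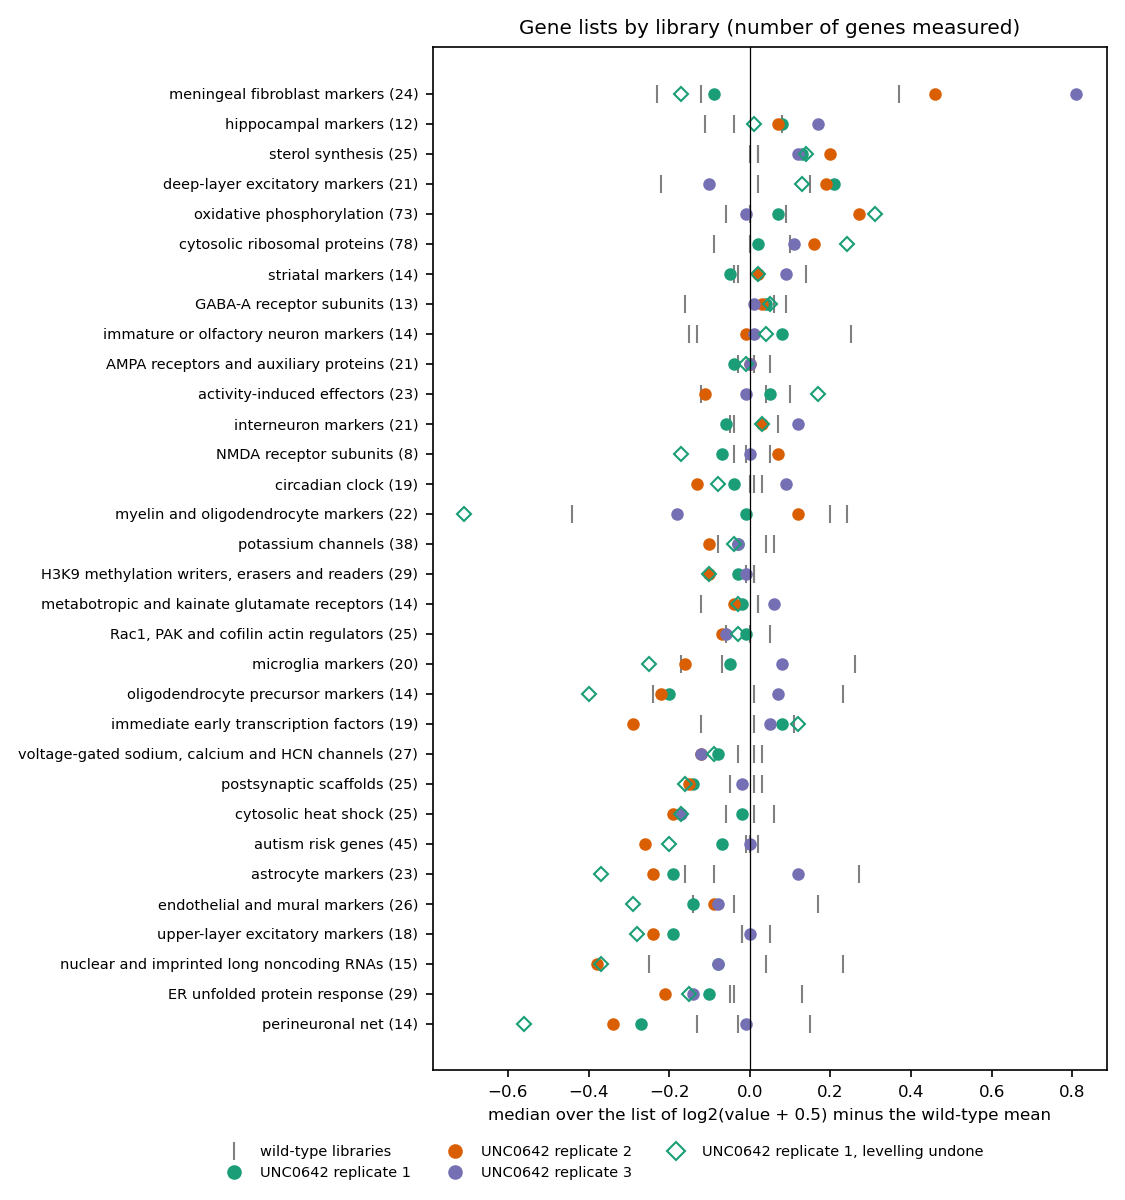
Median over each gene list of log2(value + 0.5) minus the wild-type mean (horizontal axis) for each treated library (filled points), for UNC0642 replicate 1 with the levelling undone (open diamonds) and for each wild-type library (grey ticks). Sterol synthesis lies above and the unfolded protein response below all wild-type libraries in each treated library, while the meningeal, perineuronal net, myelin and astrocyte lists spread widely between libraries.

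Genes of the postsynaptic scaffold, the network SHANK3 belongs to, were mostly lower in replicates 1 and 2. Of 25 members 22 had a negative difference, 7 lay below wild type without overlap and 0 above, and the median was -0.10. By library the medians were -0.14, -0.15 and -0.02, against -0.05 to 0.03 in wild type, so replicate 3 lay within the wild-type range. Tanc1, a scaffold that binds PSD-95, read 19.4, 18.5 and 21.6 in wild type and 17.1, 8.36 and 11.9 under UNC0642 (-0.70, SE 0.19). Sipa1l1, a RapGAP of dendritic spines, read 585, 559 and 602 against 496, 409 and 511 (-0.31, SE 0.09), and Baiap2, the actin-binding SHANK partner IRSp53, 408, 391 and 360.2 against 351, 338 and 320.0 (-0.20, SE 0.08). All 3 kept the groups apart in every library, replicate 3 included. Homer1, which links SHANK proteins to metabotropic receptors, read 245, 237 and 159 against 183, 111 and 169 and overlapped (-0.47, SE 0.17), and the limma adjusted p was 0.58 for all 4. Shank1 and Shank2 differed by -0.16 (SE 0.09) and -0.16 (SE 0.08), and Dlg4, which encodes PSD-95, by 0.03 (SE 0.08).

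Glutamate receptor genes showed no shared direction. Of 8 genes in the NMDA receptor list 3 were positive, and the median of -0.02 became 0.03 in replicates 2 and 3. The list counts Grina, 1 of the positive genes, which is named for the receptor but encodes no subunit of it. Grin1, the obligatory subunit, read 586, 521 and 467 in wild type and 503, 565 and 487 under UNC0642 (-0.01, SE 0.09). Grin2a and Grin2b, the main regulatory subunits, differed by -0.14 (SE 0.13) and 0.10 (SE 0.13), both with overlap. Grin2c read 57.3, 57.2 and 82.0 against 55.8, 46.1 and 55.3 without overlap (-0.30, SE 0.12, limma adjusted p = 0.58). Grin3a differed by 0.17 (SE 0.10), and the other 3 genes by between -0.15 (Grin3b) and 0.11 (Grina), with directions that turned in some alternatives. Of 21 AMPA receptor and auxiliary genes 11 were positive with a median of 0.00, and the subunits Gria1, Gria2, Gria3 and Gria4 differed by 0.06, 0.00, -0.02 and 0.02. The list ranged from -0.31 (SE 0.10) for Cacng2 to 0.17 (SE 0.17) for Cacng4. By library Cacng2 lay at -0.33, -0.48 and -0.13 from the wild-type mean, and its groups were not apart on both scales. Of 14 metabotropic and kainate receptor genes 6 were positive with a median of -0.04, which became 0.01 in replicates 2 and 3.

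Genes induced by neuronal activity differed in both directions. Arc, which promotes removal of AMPA receptors from synapses, read 443, 379.6 and 432 in wild type and 391, 216 and 286 under UNC0642, with replicate 1 at 356 when the levelling was undone. Replicate 1 overlapped wild type as deposited but not with the levelling undone, and replicates 2 and 3 lay below. Arc differed by -0.53 over all 3 libraries (SE 0.16, limma adjusted p = 0.58) and by -0.75 in replicates 2 and 3 (SE 0.14, limma adjusted p = 0.22). Egr3, an early transcription factor, read 299, 282 and 189 against 221, 139 and 198 and overlapped through wild-type replicate 3 (-0.46, SE 0.16). Dusp1, a phosphatase of MAP kinases, lay higher without overlap, at 44.1, 44.8 and 41.7 against 53.2, 61.2 and 48.4 (0.31, SE 0.09), and Dusp4, of the same family, lower without overlap, at 10.7, 11.2 and 9.76 against 9.30, 7.38 and 8.25 (-0.33, SE 0.14). The limma adjusted p was 0.58 for these 3. Of 19 immediate early transcription factors 8 were positive and 0 kept the groups apart (library medians 0.08, -0.29 and 0.05), and of 23 effectors 9 were positive, 2 higher and 2 lower without overlap (library medians 0.05, -0.11 and -0.01). The sign of both medians over 3 libraries turned in some alternatives.

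Interneuron markers lay near 0 as a list (10 of 21 positive, median -0.02, a sign that turned in some alternatives), with 1 member lower and 1 higher without overlap. Pvalb, the calcium buffer of fast-spiking interneurons, read 33.2, 37.6 and 28.3 in wild type and 23.7, 24.0 and 23.2 under UNC0642, and 19.0 in replicate 1 unlevelled. Sst, the peptide somatostatin of another class, read 235, 221 and 243 against 263, 289.7 and 278, and 334 in replicate 1 unlevelled. The differences were -0.46 for Pvalb (SE 0.13) and 0.25 for Sst (SE 0.08), each with a limma adjusted p of 0.58. In bulk tissue, fewer cells of a type and less RNA per cell cannot be told apart. The saline mutants, levelling undone, read 26.0, 20 and 28.5 for Pvalb and 325, 329 and 294 for Sst. Gad1, a GABA-synthesising enzyme of all these cells, overlapped between the groups (-0.17, SE 0.08, limma adjusted p = 0.59).

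Components of the perineuronal net, the matrix around fast-spiking interneurons, had negative differences in 14 of 14 measured genes, 1 of them without overlap, with a median of -0.23. By library the medians were -0.27, -0.34 and -0.01 (-0.56 for replicate 1 unlevelled), against -0.13 to 0.15 in wild type, so replicate 3 lay within the wild-type range, and the median was -0.14 without wild-type replicate 3 and -0.12 without UNC0642 replicate 2. Acan, the aggrecan core protein, was the member without overlap. It had 49, 64 and 62 reads in wild type and 4, 20 and 41 under UNC0642, deposited as 2.58, 2.97 and 2.99 against 0.926, 0.854 and 1.71 (-1.04, SE 0.25, limma adjusted p = 0.58). Replicate 3 was nearest to wild type, and the saline mutants read 0.839, 1.26 and 0.711 with the levelling undone. Tnr, tenascin-R, overlapped between the groups (-0.19, SE 0.10). Several of these genes are also expressed by glia. Of 23 astrocyte markers 20 were negative, with library medians of -0.19, -0.24 and 0.12 (-0.37 for replicate 1 unlevelled). The part of glia in the list's difference was not tested.

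Voltage-gated channel genes had a median below 0 in each treated library. Of 27 sodium, calcium and HCN channel genes 21 were negative, 5 lay below and 2 above wild type without overlap, and the median was -0.10. The library medians of -0.08, -0.12 and -0.12 all lay below the wild-type range of -0.03 to 0.03. Scn8a, the sodium channel of the axon initial segment, read 407, 403 and 352 in wild type and 349, 310.4 and 349 under UNC0642 (-0.20, SE 0.08), and Cacna1a, the P/Q-type calcium channel, 206, 215 and 184 against 183, 171 and 181 (-0.18, SE 0.08). Cacnb2, an auxiliary calcium channel subunit, lay higher at 43.6, 46.6 and 43.6 against 51.5, 53.8 and 49.9 (0.21, SE 0.09). These 3 kept the groups apart. Scn4b, an auxiliary sodium channel subunit, read 64.2, 70.0 and 35.2 against 39.6, 33.4 and 20.03 and overlapped through wild-type replicate 3 as deposited (-0.85, SE 0.24), but not with the levelling undone, where replicate 1 read 22.7.

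Of 38 potassium channel genes 23 were negative, 6 lay below wild type without overlap and 0 above, and the median was -0.04. The library medians were -0.03, -0.10 and -0.03 against -0.08 to 0.06 in wild type, so replicates 1 and 3 lay within the wild-type range. Kcnip2, a subunit of A-type channels, read 115, 106 and 114 in wild type and 88.2, 87.5 and 98.4 under UNC0642 (-0.29, SE 0.10), and Kcnt1, a sodium-activated channel, 133, 137 and 136 against 129.8, 109.7 and 104 (-0.25, SE 0.09). Both kept the groups apart. Kcna1, an axonal channel, read 165, 172 and 135 against 143, 119 and 118 and overlapped through wild-type replicate 3 as deposited (-0.31, SE 0.10), but not with the levelling undone, where replicate 1 read 105. The limma adjusted p was 0.58 for each channel gene named here.

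The unfolded protein response of the endoplasmic reticulum (ER) raises chaperones and degradation factors when proteins misfold there, and the median of its genes was below 0 in each treated library. Of 29 measured members 25 had a negative difference, 7 lay below wild type without overlap and 0 above, and the median was -0.18 over 3 libraries and -0.20 in replicates 2 and 3. By library the medians were -0.10, -0.21 and -0.14 (-0.15 for replicate 1 unlevelled), below the wild-type range of -0.05 to 0.13. Wild-type replicate 2 set the top of that range, and without it the median difference was -0.12.

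Promoters of this response can carry the ER stress element, known to be read by the factors NF-Y and ATF6. Its letters, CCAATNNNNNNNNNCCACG, were searched on both strands of RefSeq windows from 250 bases before to 50 after each gene start, on build GRCm38.p6 and matched by symbol, as no sequence of the files' own build, mm9, was used here. They stood in 39 of 32851 windows (0.119%), or 37 of the 27025 genes with a window (0.137%), and in 9 of the 26 list genes that have a window. The 4 stretches shown are from holders whose values follow, on the plus strand, with the fixed letters of the element in capitals, to let the shared element be compared.
Hspa5, chr2:34771980-34772088: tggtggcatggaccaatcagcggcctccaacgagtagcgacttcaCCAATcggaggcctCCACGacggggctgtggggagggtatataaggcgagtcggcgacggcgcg
Dnajc3, chr14:118937782-118937890: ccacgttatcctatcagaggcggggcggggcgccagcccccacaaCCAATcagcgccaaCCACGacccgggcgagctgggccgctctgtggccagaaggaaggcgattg
Pdia6, chr12:17266446-17266554: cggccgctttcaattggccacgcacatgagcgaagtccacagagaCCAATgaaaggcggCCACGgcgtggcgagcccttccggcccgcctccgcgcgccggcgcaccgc
Syvn1, chr19:6046487-6046575: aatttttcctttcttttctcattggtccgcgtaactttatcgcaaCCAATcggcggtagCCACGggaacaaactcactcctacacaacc
The element begins 65 bases before the gene start in Hspa5, 105 in Dnajc3, 98 in Pdia6 and 44 in Syvn1. A match describes these letters only, since binding was not measured.

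Among the holders shown, Hspa5, the ER chaperone BiP, read 362, 482 and 393 in wild type and 338, 264 and 331 under UNC0642 (-0.40, SE 0.13). Syvn1, a ubiquitin ligase of ER-associated degradation, read 53.3, 54.1 and 54.6 against 50.5, 44.95 and 47.2 (-0.18, SE 0.08). Both kept the groups apart. Pdia6, a disulfide isomerase, read 149, 175 and 158 against 143, 134 and 140.3 (-0.21, SE 0.09) and overlapped only with the levelling undone, where replicate 1 read 154. Dnajc3, a co-chaperone, read 61.5, 81.2 and 71.6 against 62.3, 46.1 and 64.3 and overlapped (-0.31, SE 0.13). The 9 holders in the list ranged from -0.40 to -0.01 with a median of -0.21, and the 16 measured members whose windows lacked the letters had a median of -0.16. Outside the list 7 holders were measured, with a median of -0.10.

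Of the members without a promoter shown, Sdf2l1, a cofactor of BiP, had the largest difference in the list, at 14.1, 23.2 and 16.0 in wild type and 11.7, 8.998 and 11.3 under UNC0642 (-0.69, SE 0.18). Manf, a factor secreted by stressed cells, read 52.2, 64.8 and 53.6 against 47.6, 42.9 and 44.6 (-0.33, SE 0.10), and Xbp1, a transcription factor of the response, 96.9, 105 and 93.3 against 86.6, 75.1 and 80.2 (-0.29, SE 0.09). All 3 kept the groups apart, wild-type replicate 2 was the highest library in each, and the limma adjusted p was 0.58 for each of the 7 genes. The saline mutants, levelling undone, read 358, 354 and 277 for Hspa5, under wild type, and 14.2, 15.9 and 11.8 for Sdf2l1, overlapping it. The 4 members with a positive difference were Atf4 (0.23), Sec61b (0.10), Eif2ak3 (0.09) and P4hb (0.08).

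Cytosolic and mitochondrial heat shock genes had 22 of 25 negative differences, 3 without overlap lower and 0 higher, with a median of -0.10. Hspd1 and Hspe1 are the mitochondrial members. By library the medians were -0.02, -0.19 and -0.17 (-0.17 for replicate 1 unlevelled), against -0.06 to 0.06 in wild type. Replicate 1 as deposited thus lay within the wild-type range. Hsph1, an exchange factor of HSP70, read 423, 469 and 433 in wild type and 420.4, 365 and 352 under UNC0642 (-0.22, SE 0.08). Dnaja4, a co-chaperone, read 62.7, 68.9 and 61.7 against 60.8, 46.3 and 51.5 (-0.29, SE 0.11), and Ahsa2, an HSP90 activator, 75.3, 77.5 and 87.5 against 70.4, 54.6 and 72.7 (-0.29, SE 0.11). These 3 kept the groups apart, with replicate 1 close under wild type in Hsph1 and Dnaja4 as deposited, and the limma adjusted p was 0.58 each. Hspa8, the constitutive HSP70, differed by 0.00 (SE 0.11).

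Sterol synthesis genes, the cholesterol pathway that the transcription factor SREBP2 controls, had a median above 0 in each treated library. Of 25 members 24 had a positive difference, 8 lay above wild type without overlap and 0 below, and the median was 0.15 over 3 libraries and 0.16 in replicates 2 and 3. The library medians were 0.13, 0.20 and 0.12 (0.14 for replicate 1 unlevelled), above the wild-type range of 0.00 to 0.02. Hmgcs1, an early enzyme of the pathway, read 386, 375 and 346 in wild type and 406, 424 and 419 under UNC0642 (0.18, SE 0.08). Fdft1, squalene synthase, read 118, 115 and 106 against 133, 154 and 123.1 (0.27, SE 0.09). Acat2, a thiolase that feeds the pathway, read 23.9, 24.5 and 26.3 against 27.3, 35.6 and 29.2 (0.29, SE 0.11), and Insig1, which retains SREBP in the ER, 89.9, 82.6 and 87.8 against 95.9, 102 and 101 (0.20, SE 0.08). The groups did not overlap in these 4, and the limma adjusted p was 0.58 each. The saline mutants, levelling undone, read 364, 377 and 403 for Hmgcs1, overlapping wild type, and 128, 136 and 141 for Fdft1, above it. Srebf2, which encodes SREBP2, differed by 0.02 (SE 0.07).

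**Figure D4:**
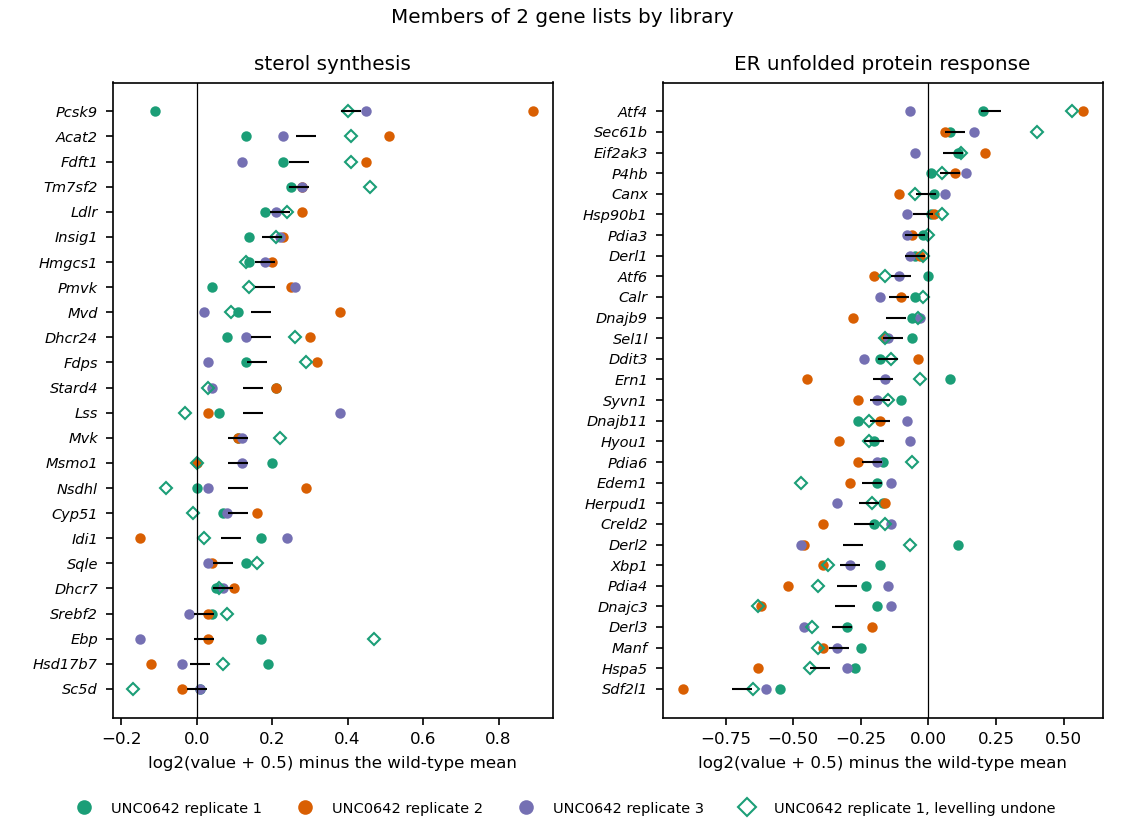
Log2(value + 0.5) minus the wild-type mean (horizontal axes) of the members of the sterol synthesis list that are reported here and of the 29 measured members of the unfolded protein response list, for the 3 treated libraries and for UNC0642 replicate 1 with the levelling undone (open diamonds), with a black dash for the difference of all 3 libraries. In the sterol list each member drawn but Sc5d has a difference above 0, and in the unfolded protein response list 25 have one below 0, down to -0.69 for Sdf2l1.

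Writers, erasers and readers of H3K9 methylation, the mark UNC0642 acts on, had 18 of 29 negative differences, 4 without overlap lower and 0 higher, and a median of -0.04. Kdm7a, a demethylase of this mark, read 69.1, 71.2 and 71.5 in wild type and 65.5, 37.8 and 62.4 under UNC0642 (-0.39, SE 0.15), with replicate 2 far below the other 2 as deposited. Prdm2, of a methyltransferase family, read 77.7, 91.7 and 85.5 against 77.6, 64.0 and 76.6 (-0.22, SE 0.09), with replicate 1 just under the lowest wild-type library. Suv39h1, which places the trimethyl mark, read 26.5, 29.6 and 34.5 against 33.0, 37.4 and 35.7 and overlapped as deposited (0.23, SE 0.11), but not with the levelling undone, where replicate 1 read 35.4. The limma adjusted p was 0.58 for all 3. Of 25 germline genes known to be silenced through EHMT1 and EHMT2 in other cells, 5 passed into the matrix: Ddx4, Dazl, Sycp3, Tdrd1 and Piwil2 differed by -0.25, -0.25, -0.24, -0.22 and -0.02 (SEs 0.19 to 0.30). Their library medians were -0.21, -0.38 and 0.16 (-0.63 for replicate 1 unlevelled), against -0.18 to 0.19 in wild type. Replicate 3 thus had the opposite sign to the others but lay within the wild-type range.

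Autism risk genes lay lower in replicates 1 and 2. Of 45 measured members 38 were negative, 8 without overlap lower and 0 higher, with library medians of -0.07, -0.26 and 0.00 against -0.01 to 0.02 in wild type. Leaving out replicate 2 moved the median from -0.11 to -0.04, leaving out replicate 3 moved it to -0.17, and replicate 3 alone gave 0.00. Kmt2a and Kmt2c, methyltransferases of lysine 4 of histone H3, read 202, 205 and 236 in wild type against 186, 122 and 191 (-0.39, SE 0.13) and 98.3, 102 and 129 against 97.0, 66.7 and 94.5 (-0.36, SE 0.13). Arid1b, a subunit of the BAF chromatin remodeller, read 84.7, 86.8 and 89.7 against 78.4, 68.8 and 75.1 (-0.23, SE 0.08). In all 3 the groups did not overlap, replicate 2 was the lowest library as deposited, and the limma adjusted p was 0.58.

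Actin regulators of the Rac1, PAK and cofilin pathway had 18 of 25 negative differences, 3 without overlap lower and 1 higher, and a median of -0.07, or -0.03 without UNC0642 replicate 2. Rac1, the GTPase at its head, was the member that lay higher without overlap (0.10, SE 0.07). Trio, an exchange factor for Rac1, lay lower without overlap (-0.21, SE 0.09), as did the exchange factor Arhgef7 (-0.15, SE 0.07) and the cofilin Cfl2 (-0.10, SE 0.07). None of the 4 passed the limma test.

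The medians of upper-layer and deep-layer cortical markers had opposite signs in replicates 1 and 2. Of 18 upper-layer markers 14 were negative, 4 without overlap lower and 0 higher, with library medians of -0.19, -0.24 and 0.00 (-0.28 for replicate 1 unlevelled) against -0.02 to 0.05 in wild type. Of 21 measured deep-layer markers 14 were positive, 1 without overlap higher and 1 lower, with library medians of 0.21, 0.19 and -0.10, so replicate 3 had the opposite sign. Wild-type medians of this list ran from -0.22 to 0.15, and replicate 1 unlevelled, at 0.13, lay within that range. Without UNC0642 replicate 2 the upper-layer median moved from -0.14 to -0.07, and without wild-type replicate 3 the deep-layer median moved from 0.14 to 0.03. Plxnd1, a semaphorin receptor, read 68.5, 70.8 and 85.6 in wild type and 58.6, 58.8 and 55.2 under UNC0642 (-0.37, SE 0.10), and the transcription factor Pou3f2 27.98, 30.2 and 31.0 against 24.5, 23.7 and 24.8 (-0.28, SE 0.09). Among deep-layer markers the transcription factor Tshz2 lay higher, at 27.8, 30.3 and 27.1 against 34.7, 37.6 and 41.0 (0.40, SE 0.11), and Sox5 lower, at 45.7, 43.4 and 39.9 against 37.7, 30.3 and 39.9 (-0.26, SE 0.11). The groups were apart in all 4, barely so in Sox5, and the limma adjusted p was 0.58 each. How the dissections differed in depth was not measured.

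Clock genes had 15 of 19 negative differences and a median of -0.03, with library medians of -0.04, -0.13 and 0.09. Dbp, an output factor of the clock, read 51.6, 42.4 and 51.4 in wild type and 52.8, 71.4 and 71.3 under UNC0642, with replicate 1 at 79.7 unlevelled (0.41, SE 0.12). Ciart, a clock repressor, read 7.94, 9.63 and 9.91 against 10.6, 15.2 and 14.3 (0.51, SE 0.17), while Per2, a core repressor, lay lower at 50.2, 61.9 and 52.6 against 48.0, 31.5 and 44.6 (-0.42, SE 0.14). All 3 kept the groups apart, with replicate 1 nearest to wild type as deposited, and the limma adjusted p was 0.58 each. The hour of tissue collection is not in the labels.

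Ribosomal protein and respiratory chain genes differed by small positive amounts. Of 78 measured ribosomal protein genes 73 were positive and 10 lay above wild type without overlap, with library medians of 0.02, 0.16 and 0.11 (0.24 for replicate 1 unlevelled) against -0.09 to 0.10 in wild type. Without wild-type replicate 2 the median moved from 0.09 to 0.04, and without wild-type replicate 3 to 0.14. Of 73 measured oxidative phosphorylation genes 69 were positive and 5 lay above wild type without overlap, with library medians of 0.07, 0.27 and -0.01 (0.31 unlevelled), so replicate 3 was level with wild type, and their median of 0.11 was 0.03 without replicate 2, 0.17 without replicate 3 and 0.06 without wild-type replicate 3. Rpl7, of the large ribosomal subunit, read 199, 191 and 201 in wild type and 216, 230.2 and 226 under UNC0642 (0.19, SE 0.07), and Ndufb11, of respiratory complex I, 84.8, 84.1 and 79.1 against 92.0, 112 and 89.6 (0.24, SE 0.09). Both kept the groups apart, and the limma adjusted p was 0.58 each. Ribosomal protein genes have many processed copies, so their reads may be shared. Nuclear and imprinted noncoding RNAs lay the other way (2 of 15 positive, library medians -0.08, -0.38 and -0.08, -0.37 unlevelled), though replicates 1 and 3 as deposited lay within the wild-type range of -0.25 to 0.23, and the part of RNA composition in these differences was not tested.

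Vessel markers were mixed (9 of 26 positive, 5 lower without overlap and 0 higher, median -0.13, or -0.03 without wild-type replicate 3). Adgrl4 read 16.6, 19.8 and 22.0 in wild type and 12.01, 9.42 and 13.2 under UNC0642, and Flt1 48.3, 50.4 and 58.8 against 36.4, 26.9 and 40.5. Both kept the groups apart, whereas Cldn5, the tight junction protein of brain endothelium, differed by 0.09 (SE 0.14) and the smooth muscle actin Acta2 by 0.46 (SE 0.21). S100b, an astrocyte calcium-binding protein, read 101, 103 and 99.3 against 83.3, 84.4 and 85.7 (-0.26, SE 0.07), and Trem2, a microglial lipid receptor, 10.1, 9.70 and 11.9 against 13.4, 14.1 and 14.7 (0.40, SE 0.15), each without overlap and with a limma adjusted p of 0.58. Their lists did not stand apart in the same way. Astrocyte medians were -0.19, -0.24 and 0.12 by library (-0.37 for replicate 1 unlevelled) against -0.16 to 0.27 in wild type. Microglia medians were -0.05, -0.16 and 0.08 (-0.25 for replicate 1 unlevelled) against -0.17 to 0.26. Myelin markers spanned -0.44 to 0.24 within wild type, with treated libraries at -0.01, 0.12 and -0.18 as deposited and replicate 1 at -0.71 unlevelled. Replicate 1 unlevelled thus lay below the wild-type range in the astrocyte, microglia and myelin lists.

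Markers of meningeal fibroblasts, cells of the membranes over the cortex, were higher in replicates 2 and 3. Of 24 members 22 were positive, 1 without overlap higher, with a median of 0.43 over 3 libraries and 0.71 in replicates 2 and 3. The library medians were -0.09, 0.46 and 0.81 against -0.23 to 0.37 in wild type, so replicate 1 lay within wild type, and the median was 0.14 without replicate 3 and 0.25 without wild-type replicate 2. Dcn, a collagen-binding proteoglycan, read 7.17, 7.77 and 11.3 in wild type and 10.3, 15.1 and 17.4 under UNC0642 (0.67, SE 0.20), and Slc13a4, a sulfate transporter, 6.83, 5.42 and 9.76 against 7.78, 12.7 and 18.8 (0.75, SE 0.25). Both overlapped between the groups, with wild-type replicate 3 the highest of its group, and the limma adjusted p was 0.58 each.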

How the data were processed

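Total RNA of prefrontal cortex was sequenced after ribosomal RNA depletion with a stranded kit, per the labels' protocols; cutadapt, TopHat2, HTSeq and the mm9 build are named in the submitters' processing notes, the counting's strand setting is not given in the sources used here. What was deposited is a normalised signal, called CPM by the authors. In every gene, wild type and UNC0642 replicates 2 and 3 (5 libraries) have the same mean log2 as the other 4 libraries, to within 2.5e-09. Reads were solved for with a prior per library (mean 3.0 reads) and a shift per gene, accepting only values whole within 0.02 reads. All 14444 genes had 1 solution, and the largest distance from a whole read was 0.0002. The recovered totals were 12035098 to 16165483 reads per library.

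Libraries were grouped by the labels' genotype and treatment. The main test was limma (version 3.58.1, in R 4.3.3), with a trend on mean intensity, applied to log2(value + 0.5) of all 9 libraries, with group as the term and Benjamini-Hochberg adjustment over 14444 genes; the second used the 5 libraries of the levelled set. The step was tested on simulated data. Such differences understate changes of low genes. The members and lists were chosen with earlier results of these data known. Named genes were the 10 of smallest p in each direction, the 5 of smallest p in each direction with replicates 2 and 3, the 8 of widest gap in each direction, Shank3, Ehmt1, Ehmt2, Arc, and in each list the 4 members of smallest p at most; not all are printed, and 2 genes are not reported here. Genes called by an alternative, Tmem181a, promoter examples and genes outside the wild-type range were named after their values were seen. Alternatives were a pseudocount of 1, a filter on values (at least 1 in at least 3 libraries), median-of-ratios and upper-quartile factors, a replicate block, limma-voom on recovered reads, fits of fewer libraries, each library left out, an adjusted p under 0.1 and a fold of at least 1.2; 9 settings with the levelling undone were added after seeing the data. Python 3.11.15 with pandas 2.3.3, numpy 2.4.6 and matplotlib 3.10.9 did the rest.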

Additional observations from a re-analysis of the deposited data

How the results depend on the processing

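Over all 3 treated libraries limma called 0 genes as deposited, 8 by limma-voom on recovered reads, 3 in replicates 2 and 3, 5 in replicate 3 alone, and 0 to 4 when each library was left out (4 without UNC0642 replicate 1). With the levelling undone it called 14, 3 with 6 libraries in the fit, and 1 to 2995 when each library was left out (38 without wild-type replicate 3, 2995 without UNC0642 replicate 3). A fit with the side of the division as a term is no separate alternative. Its difference from wild type is that of replicate 3 alone, such as -0.80 for Gabra2 and -0.77 for Inf2 in both fits. In replicates 2 and 3, 3 genes were called, 1 with upper-quartile factors, 1 by limma-voom, and 1 to 89 when each library was left out (89 without UNC0642 replicate 3). Where 1 treated library was left (replicate 3 alone, or replicates 2 and 3 less 1 of them), it was assumed to vary like the other groups in the fit. The cause of these shifts was not tested.

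With a replicate block 0 genes were called over all 3 libraries (1155 at an unadjusted p under 0.05, by limma) and 199 in replicates 2 and 3 (74 higher, 125 lower). Deviations of same-numbered libraries correlated at -0.07, 0.02 and 0.31. The libraries numbered 3 correlated best with each other, but not every library did so with its own number. If equal numbers mark a shared step was not tested.

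Of 2880 values of 120 named genes under 24 alternatives, 2854 kept their direction and 26 turned, in 6 genes. Many of these genes were named for a small p or for groups that did not overlap, and several alternatives repeat the same comparison. The count is therefore no independent support for their directions. Ehmt2 (0.00) became -0.06, -0.01 and -0.02 without wild-type replicate 2, UNC0642 replicate 2 and UNC0642 replicate 3. Replicate 3 alone and the division term gave -0.04 each for Grina (0.11), -0.06 each for Gabra5 (0.24), and 0.03 and 0.04 for Grin3b (-0.15), which ranged from -0.26 to 0.05 when a library was left out. Grin1 (-0.01) was 0.04 by limma-voom, 0.01 in replicates 2 and 3, 0.03 with the levelling undone in 9 or 6 libraries, and -0.09 to 0.07 when a library was left out, or up to 0.11 with the levelling undone too (0.10 without UNC0642 replicate 3). Grin2d (-0.02) was 0.06 in replicates 2 and 3 and -0.09 to 0.11 when a library was left out (0.05 with the levelling undone too and without wild-type replicate 3). Of 840 list medians 68 changed sign, in 17 of 35 lists. Counts under 65 reads, as for Acan, and for Tuba1c in wild type, limit the precision of low genes.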
